A study of Drosophila melanogaster with 16 samples.

Results

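Calcineurin is a phosphatase that removes phosphate from serine and threonine when Ca2+ rises. It is built of a catalytic A subunit, which binds calmodulin, and a regulatory B subunit, which binds Ca2+ directly. In mammalian hearts calcineurin acts on NFAT transcription factors and is known for its part in hypertrophic growth, and an activated form of the enzyme enlarges the heart chamber of the fly. The fly genes described here are the catalytic subunits CanA-14F, Pp2B-14D and CanA1, the regulatory subunits CanB and CanB2, and sra, which encodes the fly member of the RCAN (regulator of calcineurin) family.

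These 6 genes were picked by symbol, and 7 of the 18769 probesets tested on the array carried 1 of those symbols and no other. CanA-14F had 2 probesets, 1623931_s_at and 1625316_s_at, and each of the other genes had 1. The set was chosen with results of these arrays in view, in particular the disagreement between the CanA-14F probesets, so the values of CanA-14F are given as a description. Where CanA-14F enters a count of called probesets, it is named and nothing is read from its call.

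RNA was measured on 16 Affymetrix Drosophila Genome 2.0 arrays, each from 30 hearts pooled from adults aged 3 weeks, kept at the same temperature on the same food and given no treatment. WtCS was the Canton-S wild type (5 arrays), and sei carried seits1, a chemically induced allele with a premature stop in the gene for the fly relative of the human hERG potassium channel (5 arrays). WtPE, labelled KCNQ97, was a line in which a P-element had been excised precisely from the KCNQ locus (3 arrays). KCNQ, labelled KCNQ37 and named KCNQ370 in the study, carried an imprecise excision with a premature stop in the gene for the fly KCNQ potassium channel (3 arrays). Each mutant was represented by 1 allele, so the mutation and any other difference between a mutant line and its control cannot be told apart. The flies had been separated by sex, but the sex used for each array is not given in the sources used here.

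Values are log2 of the deposited RMA intensities, and a difference of 1 on this scale is a 2-fold change. RMA subtracts background, normalizes the arrays and summarizes the probes of a set by a robust fit. The 75th percentile of an array still ran from 6.605 (sei replicate 5) to 7.063 (WtCS replicate 3) log2 units. The median intensity of an array lay between 10.25 and 12.28. Array names in the study's supplement placed the arrays in 3 runs. All WtPE and KCNQ arrays belonged to run A, as did replicates 4 and 5 of both WtCS and sei. Run B was made up of WtCS replicates 1 and 2, while WtCS replicate 3 fell in run C with the remaining 3 sei arrays. The same names repeat a sample code between WtCS replicates 2 and 3, between sei replicates 2 and 5, and between sei replicates 3 and 4, so some of these may be the same RNA. Values given for run A come from a fit of the run A arrays only. Because run C held 1 WtCS array, its contrasts come from a fit of all arrays with 1 mean per genotype in each run. Their SEs and p-values thus use the spread of all arrays, not of run C by itself. Among heart and muscle markers, Hand and up were measured (2 of 7), with summed intensities of 4850 to 6340 in WtCS, 4320 to 6060 in sei, 5480 to 6700 in WtPE and 5710 to 6230 in KCNQ. The sei transcript itself was lower in sei hearts (log2 difference -0.96 ± 0.25 SE, limma adjusted p = 0.0212), at 3.89 to 5.25 against 5.31 to 6.03 in WtCS. It was no longer called in a fit of those 2 groups alone (adjusted p = 0.0582), on the run A arrays (-1.35, adjusted p = 0.109) or on those of run C (-0.94, adjusted p = 0.321). The KCNQ transcript was not analysed here.

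CanA-14F encodes a calcineurin A subunit used with Pp2B-14D in the fly egg and nervous system. At probeset 1623931_s_at the 5 WtCS arrays read 6.65, 6.19, 6.29, 7.28 and 6.72 log2 units. In sei the same probeset read 3.01, 2.85, 3.48, 3.95 and 3.41. The highest sei array was below the lowest WtCS array, and below every WtPE and KCNQ array too. The sei mean was 3.34 ± 0.43 (SD, n = 5) against 6.63 ± 0.43 (SD, n = 5) in WtCS, a log2 difference of -3.29 ± 0.26 (SE), which is 9.76-fold lower. On the linear scale the sei arrays had intensities of 7.19 to 15.4, around the array medians (2 arrays below their range of 10.25 to 12.28, 2 inside it and 1 above).

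The difference was about as large within the runs as across them. Within run A, where both genotypes had 2 arrays, the difference at 1623931_s_at was -3.32 ± 0.37 (SE), and within run C, with 1 WtCS array, it was -3.18 ± 0.41 (SE). With run as a covariate it was -3.26 ± 0.26 (SE). Leaving out single WtCS or sei arrays moved it between -3.44 and -3.12.

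In the other lines 1623931_s_at stood between these levels. The WtPE arrays read 5.94, 5.76 and 5.27 (mean 5.66 ± 0.35 SD, n = 3). The KCNQ arrays read 5.75, 4.97 and 5.79 (mean 5.50 ± 0.46 SD, n = 3). KCNQ and WtPE overlapped, with a log2 difference of -0.15 ± 0.34 (SE), whereas WtPE lay wholly below WtCS, by -0.97 ± 0.30 (SE), or 1.96-fold. The levels therefore ordered as WtCS, then WtPE and KCNQ with no gap beyond their spread, then sei. The sei effect less the KCNQ effect was -3.14 ± 0.42 (SE) on the log2 scale.

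The second CanA-14F probeset, 1625316_s_at, gave another picture. It read 3.49, 2.75, 1.96, 2.70 and 2.34 in WtCS (mean 2.65 ± 0.57 SD). In sei it read 2.52, 2.45, 2.71, 2.89 and 2.54 (mean 2.62 ± 0.18 SD). The sei arrays fell inside the WtCS range, and the log2 difference was -0.03 ± 0.43 (SE). By run it was 0.20 ± 0.80 (SE) on the run A arrays and 0.60 ± 0.83 (SE) on those of run C, and a run covariate gave 0.37 ± 0.52 (SE). In WtPE it read 5.15, 3.37 and 2.75, and in KCNQ 4.26, 2.93 and 5.04, so 1 WtPE array and 2 KCNQ arrays were above every WtCS array while the rest lay within the WtCS range. The difference between WtPE and WtCS was 1.11 ± 0.50 (SE), opposite in sign to that at 1623931_s_at, and the groups overlapped. Most WtCS and sei readings of 1625316_s_at were below the array medians (intensities of 3.89 to 11.3 in WtCS and 5.46 to 7.41 in sei). Over the 16 arrays the 2 probesets correlated at r = 0.26, a description over arrays that share genotype and run. The _s_at suffix marks sets whose probes match several transcripts, which need not all come from 1 gene. The sources used here do not say which transcripts each set measures. Whether either set also reads another gene, such as Pp2B-14D, was not tested.

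**Figure D1:**
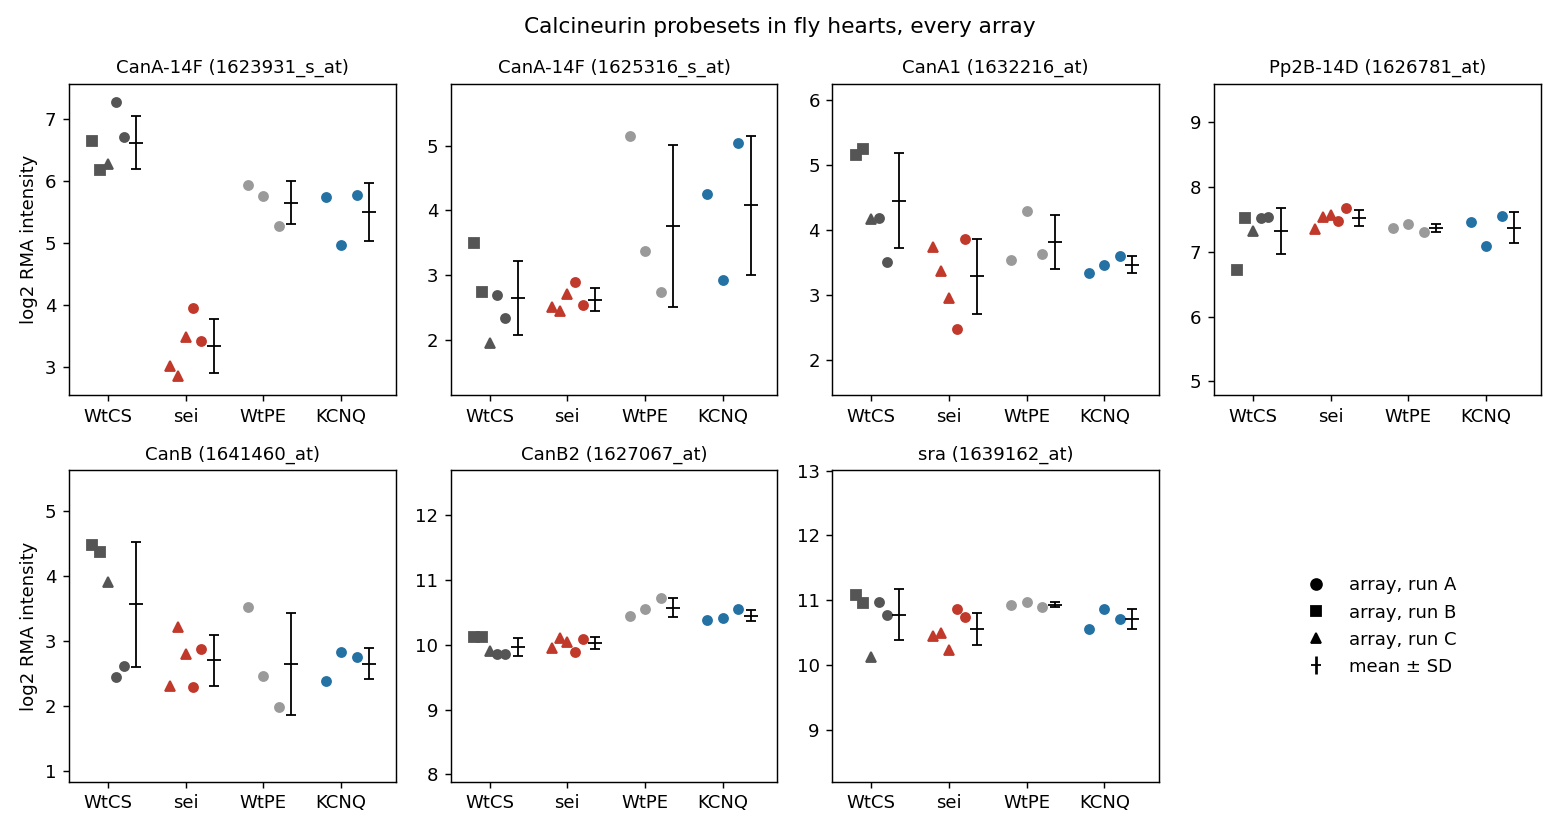
Log2 RMA intensity (vertical axes, of nearly the same span but placed at each probeset's own level) of the 7 calcineurin probesets by genotype. Each point is 1 array, its shape gives the run, and the bar is the group mean ± SD. At CanA-14F 1623931_s_at the sei arrays (2.85 to 3.95) lie apart from all others, and at CanB2 the WtPE and KCNQ arrays (10.39 to 10.73) lie above WtCS and sei.

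Pp2B-14D encodes the calcineurin A subunit closest to CanA-14F, and its gene lies next to CanA-14F on the X chromosome with 0 annotated genes between them. Its probeset 1626781_at was level across genotypes. WtCS read 6.71, 7.52, 7.32, 7.52 and 7.54 (mean 7.32 ± 0.35 SD), the first array being low. The sei arrays read 7.36, 7.53, 7.57, 7.47 and 7.67 (mean 7.52 ± 0.12 SD). The 3 WtPE arrays lay between 7.30 and 7.43 and the 3 KCNQ arrays between 7.10 and 7.56. The sei difference was 0.20 ± 0.17 (SE, 95% interval -0.17 to 0.56, limma adjusted p = 0.56), with overlapping groups, and it was 0.04 without WtCS replicate 1. The KCNQ difference was 0.01 ± 0.22 (SE, 95% interval -0.46 to 0.48, adjusted p = 1). The sei difference of -3.29 at 1623931_s_at, on which the set was chosen, lies outside the sei interval for Pp2B-14D. Nothing is read from this.

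The genes around this pair were compared as well. The 6 neighbours with a probeset (Cnx14D, CG9903, CG9902, CG13014, SMC3 and Ubc7, up to 3 on each side) had sei differences of -0.10 to 0.25 on the log2 scale. Of them 0 were called by limma (lowest adjusted p = 0.709), beside 11.1% of all probesets. In KCNQ against WtPE the differences ran from -0.28 to 0.22 with 0 called (lowest adjusted p = 1), beside 0.170% of all probesets. In both contrasts 0 had an unadjusted p under 0.05. In WtPE against WtCS they ran from -0.55 to 1.19, again with 0 called and 0 at an unadjusted p under 0.05 (lowest adjusted p = 0.339). Over all probesets 3.67% were called there. Several of these neighbours, among them CG9903 and Cnx14D, read at or below the array medians.

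**Figure D2:**
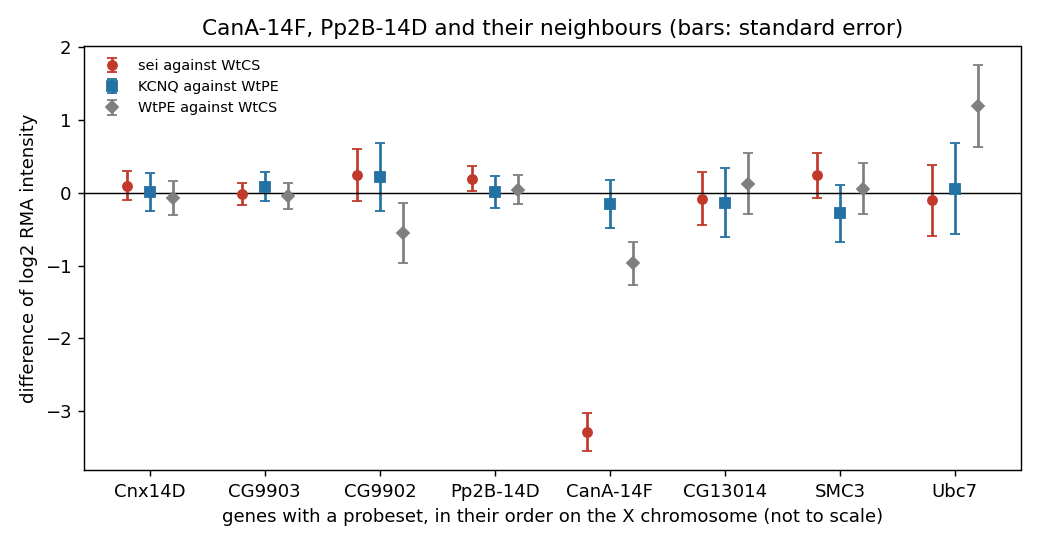
Difference of log2 RMA intensity (vertical axis, bars are SE) for CanA-14F (1623931_s_at), Pp2B-14D and 6 neighbouring genes in their order on the X chromosome, not to scale. The sei difference is -3.29 at CanA-14F and between -0.10 and 0.25 at the neighbours.

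CanA1 encodes the third catalytic subunit, tied in the fly to the larval immune response, and lies on chromosome 3R. Its probeset 1632216_at read 5.15, 5.24, 4.17, 4.19 and 3.51 in WtCS (mean 4.45 ± 0.73 SD). The sei arrays read 3.74, 3.37, 2.96, 2.47 and 3.87 (mean 3.28 ± 0.58 SD). CanA1 was lower in sei by -1.17 ± 0.33 (SE), or 2.25-fold (limma adjusted p = 0.0327), but the groups overlapped, since WtCS replicate 5 read below sei replicates 1 and 5. The highest values were the run B arrays, WtCS replicates 1 and 2. The difference was smaller and not called with run as a covariate (-0.74, adjusted p = 0.15), on the run A arrays (-0.68, adjusted p = 0.439) or on those of run C (-0.82, adjusted p = 0.502), and a fit of the 2 groups alone gave an adjusted p of 0.0889. The call was also lost when WtCS replicate 1 or 2 or sei replicate 2, 3 or 4 was left out (adjusted p of up to 0.0883, differences of -1.19 to -0.97). In WtPE it read 3.53, 4.30 and 3.63 and in KCNQ 3.34, 3.45 and 3.60, a difference of -0.35 ± 0.43 (SE, adjusted p = 1) with overlap. WtPE differed from WtCS at CanA1 by -0.63 ± 0.38 (SE, adjusted p = 0.515), and by -0.03 within run A. The sei effect less the KCNQ effect was -0.82 ± 0.54 (SE, adjusted p = 0.692).

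**Figure D3:**
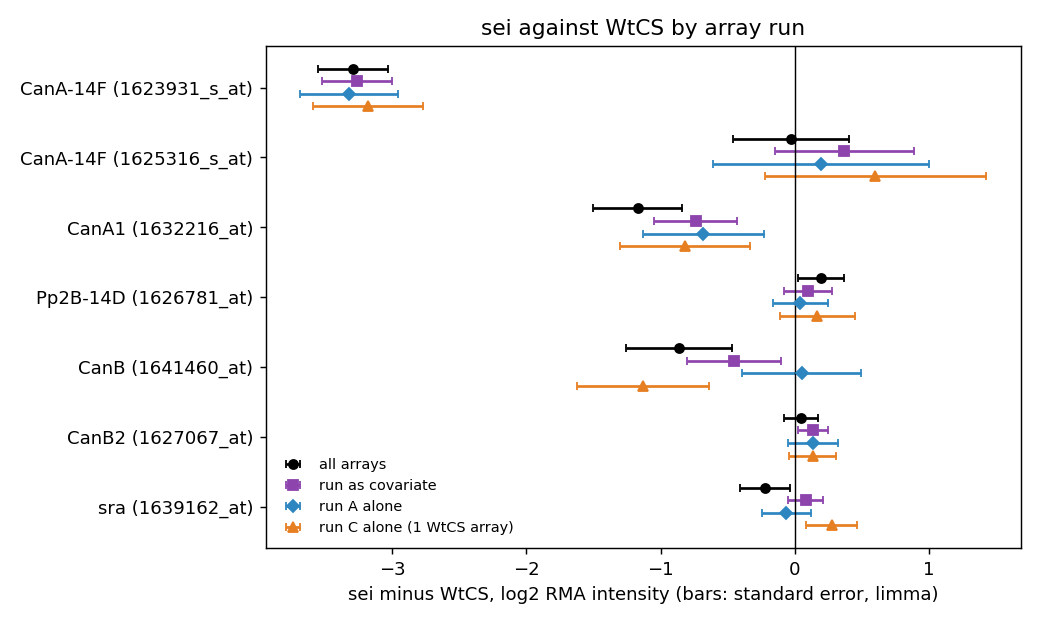
Difference of log2 RMA intensity between sei and WtCS (horizontal axis, bars are SE) for the 7 calcineurin probesets, from 4 fits. These are all arrays, all arrays with a run covariate, the run A arrays by themselves, and the contrast within run C. The run C contrast (1 WtCS array) comes from a fit of all arrays, so its bars use the spread of all arrays. CanA-14F 1623931_s_at stays between -3.32 and -3.18, whereas CanA1 shrinks from -1.17 to between -0.82 and -0.68 and CanB goes from -0.86 to 0.05 within run A.

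Of the regulatory subunits, CanB, encoded on the X chromosome, was dim on the array. Its probeset 1641460_at read 4.48, 4.37, 3.91, 2.45 and 2.62 in WtCS (mean 3.57 ± 0.97 SD). The 2 low readings were the WtCS arrays of run A. The sei arrays read 2.32, 3.23, 2.81, 2.30 and 2.88 (mean 2.71 ± 0.40 SD), a difference of -0.86 ± 0.40 (SE, adjusted p = 0.194). Within run A, the difference was 0.05 ± 0.44 (SE). The WtPE arrays read 3.52, 2.46 and 1.99 and the KCNQ arrays 2.38, 2.83 and 2.75, with equal means of 2.65 and a log2 difference of 0.00 ± 0.51 (SE, 95% interval -1.09 to 1.09). The difference between WtPE and WtCS was -0.91 ± 0.46 (SE, adjusted p = 0.383), and within run A it was 0.12 ± 0.41 (SE).

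CanB2, the B subunit needed for fly flight muscle, is encoded on chromosome 2R and was bright in every heart sample. Its probeset 1627067_at read 10.12, 10.13, 9.90, 9.86 and 9.85 in WtCS (mean 9.97 ± 0.14 SD). In sei it read 9.95, 10.10, 10.04, 9.89 and 10.10 (mean 10.02 ± 0.09 SD). These groups overlapped almost fully, with a difference of 0.05 ± 0.13 (SE, 95% interval -0.23 to 0.32, adjusted p = 0.887). The WtPE arrays read 10.44, 10.56 and 10.73 (mean 10.57 ± 0.14 SD) and the KCNQ arrays 10.39, 10.41 and 10.55 (mean 10.45 ± 0.09 SD). KCNQ differed from WtPE by -0.12 ± 0.17 (SE, 95% interval -0.48 to 0.23, adjusted p = 1), and these groups overlapped.

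CanB2 was the member called between the control lines. WtPE lay wholly above WtCS, by 0.60 ± 0.15 (SE) on the log2 scale, or 1.52-fold (limma adjusted p = 0.0337), and every KCNQ array was above every sei array. The difference was 0.72 within run A (adjusted p = 0.0251) and 0.72 with run as a covariate (adjusted p = 0.0021). The call was lost with only the 2 groups in the fit (adjusted p = 0.145), with arrays scaled to the same 75th percentile (0.59, adjusted p = 0.121), and when WtCS replicate 3, 4 or 5 or any WtPE array was left out (adjusted p of up to 0.168, differences of 0.53 to 0.67).

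Sra binds calcineurin and restrains or assists it according to the setting, and in the fly it is needed for egg activation. Its probeset 1639162_at was bright in every group, at 11.09, 10.96, 10.12, 10.97 and 10.77 in WtCS (mean 10.78 ± 0.39 SD). The sei arrays read 10.45, 10.49, 10.24, 10.87 and 10.74 (mean 10.56 ± 0.25 SD). Run C arrays were the lowest in both genotypes. The difference of -0.22 ± 0.19 (SE, adjusted p = 0.539) turned to 0.08 with run as a covariate and to 0.27 within run C. WtPE read 10.93, 10.97 and 10.90, and KCNQ 10.55, 10.86 and 10.71. Every KCNQ array was below every WtPE array, but the difference of -0.22 ± 0.24 (SE, 95% interval -0.74 to 0.29) was not called (adjusted p = 1).

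**Figure D4:**
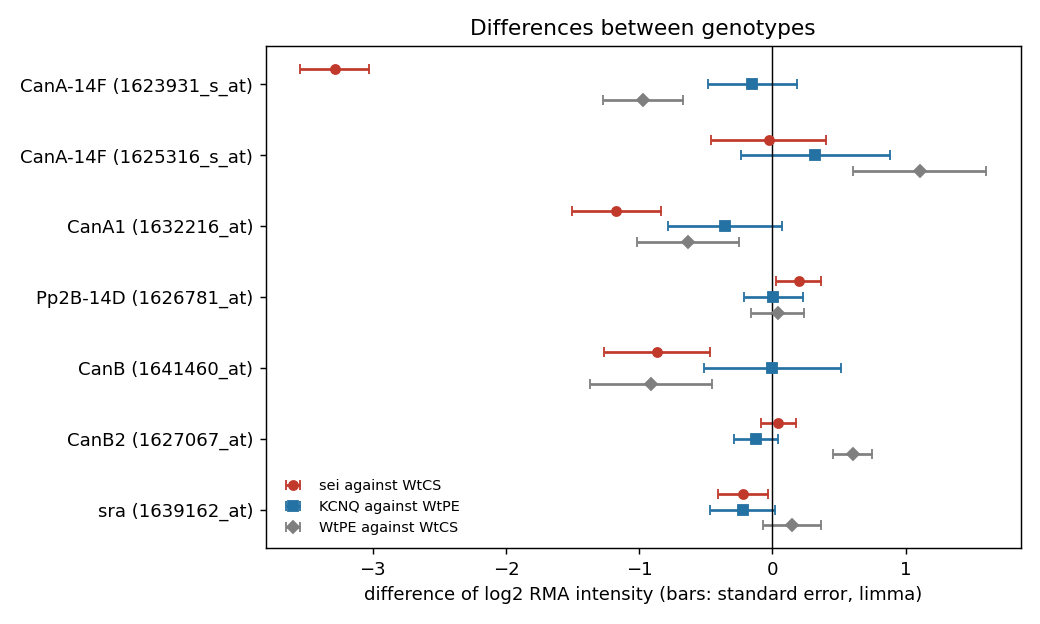
Difference of log2 RMA intensity (horizontal axis, bars are SE from limma) for the 7 calcineurin probesets in sei against WtCS, KCNQ against WtPE and WtPE against WtCS. The KCNQ differences run from -0.35 to 0.32, while CanA-14F 1623931_s_at is at -3.29 in sei and CanB2 at 0.60 between the control lines.

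In sei against WtCS, 2 of the 7 calcineurin probesets were called, both lower (CanA-14F 1623931_s_at and CanA1), beside 11.1% of all probesets. The CanA-14F probeset was selected on this contrast, so nothing is read from that count. The median log2 difference was -0.22 over the 7 probesets, the selected one included, and -0.02 over all. In this contrast 1 of 7 had groups that did not overlap, beside 7.17% of all probesets. It was again CanA-14F 1623931_s_at, so it is read no further. In KCNQ against WtPE, limma called 0 of 7 beside 0.170% of all probesets, and 0 had an unadjusted p under 0.05. Of the 7, 1 (sra) had non-overlapping groups there, beside 10.8% of all probesets. In WtPE against WtCS, 1 of 7 was called, the higher CanB2, beside 3.67% of all probesets, and 2 had groups that did not overlap (CanA-14F 1623931_s_at and CanB2), beside 10.6%. For the sei effect less the KCNQ effect, 1 of 7 was called, again CanA-14F 1623931_s_at and so read no further, beside 1.39% of all probesets. The contrasts of sei and of WtPE both use the WtCS arrays.

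Other genes of the pathway were read at their brightest probeset. Of 6 calmodulin-binding genes and kinases, 3 were measured, and 1 was called in sei against WtCS, beside 11.1% of all probesets. This was CASK, a scaffold protein with a calmodulin kinase-like domain, which was lower by -1.38 ± 0.32 (SE, limma adjusted p = 0.0116), at 7.18 to 8.61 in sei against 8.38 to 9.59 in WtCS. The groups overlapped, and within run A (-0.82, adjusted p = 0.227) and run C (-1.01, adjusted p = 0.142) it was not called. Calmodulin itself (Cam), CaMKI and CaMKII were not analysed here. The median difference was -0.30 over the 3 measured genes.

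Of 12 genes listed as substrates, immunophilins or partners, 9 were measured. In sei 1 rose and 1 fell, beside 11.1% of all probesets called. NFAT is the only NFAT-family factor of the fly. Whether calcineurin acts on it was not tested, so its values are not read as a measure of calcineurin activity. NFAT was higher in sei by 1.50 ± 0.39 (SE, adjusted p = 0.0204), at 6.95 to 8.36 against 5.30 to 7.15 in WtCS. The groups overlapped. The call was lost on the run A arrays (1.87, adjusted p = 0.0955), on those of run C (1.70, adjusted p = 0.127), with repeated sample codes averaged (1.26, adjusted p = 0.0617) and without WtCS replicate 2 (1.39, adjusted p = 0.0508). NFAT was also higher in WtPE, at 7.94 to 8.94, than in any WtCS array, by 2.57 ± 0.45 (SE, adjusted p = 0.00337), and was called within run A as well (2.21, adjusted p = 0.0215). KCNQ hearts had a mean of 8.52 ± 0.51 (SD, n = 3), a difference of -0.05 ± 0.50 (SE, adjusted p = 1) from WtPE.

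Crtc, a CREB coactivator whose mammalian relatives are dephosphorylated by calcineurin, was lower in sei by -1.20 ± 0.26 (SE, adjusted p = 0.00744). Its arrays did not overlap, at 6.87 to 7.37 in sei and 7.75 to 8.73 in WtCS. A run covariate took it out of the called set (-0.97, adjusted p = 0.0548), as did restricting the contrast to run A (-1.09, adjusted p = 0.217) or to run C (-0.80, adjusted p = 0.48). The difference between WtPE and KCNQ was 0.00 ± 0.34 (SE). The other 7 measured genes of this list were not called in sei, with CrebB at 0.39, the cyclophilin Cyp1 at -0.41 and Fkbp12, a target of FK506, at 0.18. The list's median difference was 0.08, and Mef2, sgg and nmo were not analysed here. Neither NFAT (adjusted p = 0.363), Crtc (adjusted p = 0.264) nor CASK (adjusted p = 0.257) passed the test of the sei effect less the KCNQ effect.

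Of 13 other serine/threonine phosphatase genes, 10 were measured. Limma called 0 of them in sei against WtCS, KCNQ against WtPE or WtPE against WtCS, beside 11.1%, 0.170% and 3.67% of all probesets. In the same contrasts 2, 0 and 2 had an unadjusted p under 0.05. In sei the median difference was -0.31, with Pp1-13C at 0.98 ± 0.32 (SE, adjusted p = 0.0588), wdb at 0.71 ± 0.35 (SE) and Pp4-19C at -0.56 ± 0.22 (SE). Pp1-13C read below the array medians (intensities of 2.38 to 4.10 in WtCS and 3.43 to 9.35 in sei). A second, dimmer wdb probeset gave 0.19 (limma adjusted p = 0.892). The genes mts, Pp2A-29B and wrd were not analysed here. In KCNQ against WtPE 0 genes of any of these 3 lists were called, beside 0.170% of all probesets, and 0 had an unadjusted p under 0.05.

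**Figure D5:**
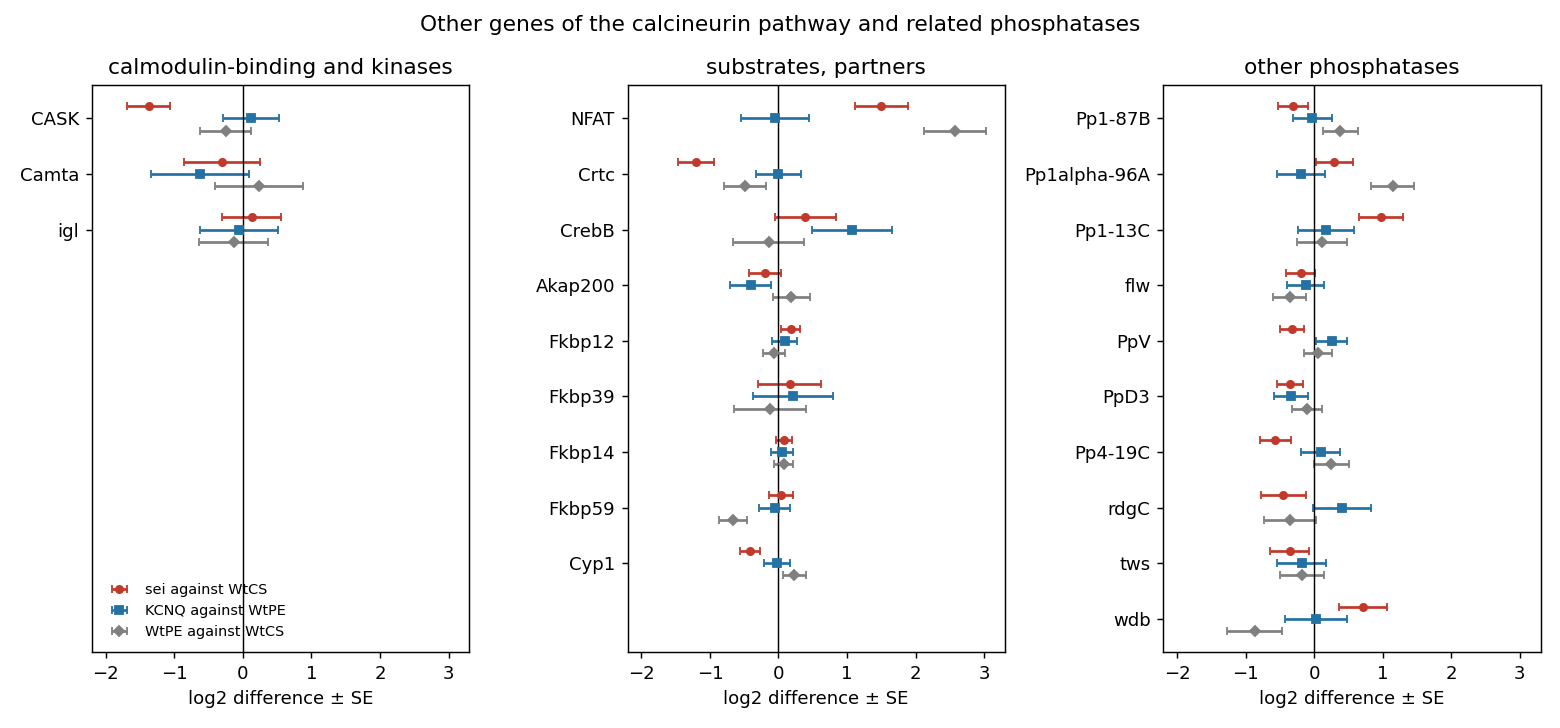
Difference of log2 RMA intensity (horizontal axes, bars are SE) for the measured genes of 3 lists in sei against WtCS, KCNQ against WtPE and WtPE against WtCS. CASK (-1.38) and Crtc (-1.20) are low in sei, and NFAT is high in sei (1.50) and in WtPE (2.57) relative to WtCS.

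Transcripts of other cell types differed between the same groups. The counts below are for sei against WtCS, where 11.1% of all probesets were called. Of 5 measured female germline genes 3 were lower in sei (BicC by -2.80, orb by -2.46 and bam by -2.16) and 0 were higher, and the summed intensity of the list was 93.8 to 855 in sei against 802 to 3620 in WtCS, 657 to 1460 in WtPE and 349 to 872 in KCNQ. Of 5 male germline genes Mst87F alone was called, higher in sei by 3.17, and the list summed to 232 to 1040 in sei, 49.5 to 217 in WtCS, 165 to 199 in WtPE and 154 to 378 in KCNQ. Of 3 hemocyte genes Hml (-1.29) and Pxn (-2.50) were lower and NimC1 (3.29) higher in sei, though a second Pxn probeset was higher (1.11). The hemocyte list summed to 1600 to 2260 in sei, 1420 to 2970 in WtCS, 2060 to 2170 in WtPE and 1580 to 1910 in KCNQ. WtPE differed from WtCS in the same direction at NimC1 (3.485, limma adjusted p = 7.47e-07), Hml (-1.47, adjusted p = 0.00373) and bam (-1.975, adjusted p = 0.000425). In that contrast 3.67% of all probesets were called. Not called there were Pxn (-1.335, adjusted p = 0.182), BicC (-1.281, adjusted p = 0.4), orb (-0.18, adjusted p = 0.968) and Mst87F (1.361, adjusted p = 0.435). The 4 neuronal genes measured, 0 of them called and 1 with an unadjusted p under 0.05, summed to 92 to 136 in sei, 123 to 175 in WtCS, 98.7 to 132 in WtPE and 96.6 to 111 in KCNQ. Of 4 pericardial genes sns was lower (-0.75). Of 4 fat body genes 0 were called and 1, Lsp2, had an unadjusted p under 0.05 (-3.90, limma adjusted p = 0.0524). Lsp2 read 3.01 to 11.12 in sei and 8.455 to 11.55 in WtCS, with WtPE (6.58 to 7.43) wholly below WtCS. The median sei difference of the fat body list was 0.20. In pooled tissue, fewer cells of a type and less RNA per cell cannot be told apart, and the part of these cell types in the values of CanA-14F, CanA1, NFAT, Crtc and CASK was not tested.

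For each calcineurin probeset, the genes with the most similar profile were found by Pearson's r over the 16 arrays, among probesets with 1 symbol. These values describe arrays that share genotype and run. Closest to CanA-14F 1623931_s_at were Jarid2, a Polycomb cofactor (r = 0.975), Sr-CI, a scavenger receptor of hemocytes (r = 0.97), nahoda (r = 0.969), CG15239 (r = 0.942) and CG31997 (r = 0.932). Jarid2 read 8.80 to 10.44 in WtCS, 5.51 to 6.70 in sei, 7.63 to 8.89 in WtPE and 8.17 to 8.58 in KCNQ, the same order of lines as CanA-14F. Sr-CI read 10.59 to 11.64 in WtCS, 8.25 to 9.13 in sei, 10.22 to 10.41 in WtPE and 9.82 to 10.16 in KCNQ. Both had a sei range that met no other genotype's range. Both were picked for likeness to this probeset, so the order and the separation come with the pick and nothing is read from them.

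None of those 5 was among the closest to CanA-14F 1625316_s_at, which were Tl, the Toll receptor (r = 0.87), Daxx (r = 0.848), CG7768 (r = 0.848), tai, a coactivator of the ecdysone receptor (r = 0.846), and jp, the fly junctophilin (r = 0.831). CanB2 was closest to CG6765 (r = 0.961), the mitochondrial ribosomal gene mRpL51 (r = 0.944) and the respiratory complex I gene ND-B14.7 (r = 0.933). CG6765 read 6.71 to 7.67 in WtPE and 5.81 to 6.55 in KCNQ, above its 3.90 to 5.43 in WtCS and 4.04 to 4.98 in sei. It was picked for likeness to CanB2, so nothing is read from that order.

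The profile of sra was closest to Orai, the pore of the store-operated Ca2+ channel (r = 0.917), with CG3308 (r = 0.903) and Gtpx (r = 0.90) next. Orai read 8.74 to 10.33 in WtCS and 8.57 to 9.96 in sei, with overlap. CanA1 was closest to SmydA-1 (r = 0.855), wake (r = 0.852) and List (r = 0.846), and CanB to beat-IIIc (r = 0.882), CG2909 (r = 0.865) and CG33679 (r = 0.838). For Pp2B-14D, whose values varied little, the closest was inc, a Cullin adaptor (r = 0.715). Among the calcineurin probesets themselves r ran from -0.41 (Pp2B-14D with CanB) to 0.67 (CanA1 with CanB).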

How the data were processed

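Hearts were profiled on single-channel arrays. The authors normalized the scans with RMA in AltAnalyze (version not given in the sources used here) and deposited linear intensity values, 18952 probesets by 16 arrays. After 183 control probesets were left out, log2 values were fitted with limma 3.58.1 in R 4.3.3 (1 mean per genotype, all 16 arrays, 12 residual degrees of freedom), and p-values were adjusted by Benjamini-Hochberg over 18769 probesets, with an adjusted p under 0.05 called. Genes came from a platform table that gives 1 symbol to 13647 probesets, several to 402 and none to 4720, and 13544 of the first kind matched a RefSeq gene table (Release 6 plus ISO1 MT), used for names and gene order. No detection calls were used, and precision is limited by how many arrays each genotype had.

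The 6 genes and all lists were chosen with earlier results of these data known. Named were all members' probesets, up to 4 called genes of each list at the brightest probeset, neighbouring genes and the 5 or 3 most similar profiles. The fit was tested on simulated data. Alternatives were other normalizations and fits, a filter on dim probesets, array run, averaged codes, the replicate block and leaving out each array.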

Additional observations from a re-analysis of the deposited data

Results flagged for a closer look

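Within the WtCS group, the Pp2B-14D reading of replicate 1 (log2 6.71) stood apart from the other 4 arrays (7.32 to 7.54). The gap was 0.729 of the group's whole range. Chance alone sets such a mark on about 1 in 20 groups, and 14 groups of 5 arrays were examined. The sei and KCNQ effects differed at CanA-14F 1623931_s_at, by -3.14 ± 0.42 (SE) on the log2 scale, a probeset chosen with this contrast known.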

How the results depend on the processing

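The calcineurin probesets called in sei against WtCS numbered 2, and 1 in a fit of the 2 groups alone, after dropping probesets whose mean log2 was under 5 (CanA1 among them), with array run as a covariate, in run A alone, with repeated sample codes averaged, and in run C alone (chosen after seeing the data). In WtPE against WtCS the number was 1, and 0 with the 2 groups alone, the same 75th percentile and the replicate block. It was 2 with that filter on dim probesets, beside 785 of all 7167 kept. It was also 2 with run as a covariate (beside 3606 of 18769), in run A alone (2376) and with codes averaged (1190). Leaving out single arrays gave 1 to 2 and 0 to 1. In KCNQ against WtPE it was 0 throughout. For the sei effect less the KCNQ effect, which the 2 groups alone do not give, it was 1. The selected CanA-14F 1623931_s_at was that 1, the 1 left in sei and 1 of every 2, and nothing is read from it. The cause was not tested.

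Differences that turned sign were never called. With run as a covariate they were 0.369 for CanA-14F 1625316_s_at in sei and 0.0461 in the sei effect less the KCNQ effect, -0.139 for Pp2B-14D in WtPE against WtCS, 0.0804 for sra in sei and 0.303 for sra in the sei effect less the KCNQ effect. In run A alone they were 0.196 for CanA-14F 1625316_s_at in sei, -0.166 for Pp2B-14D in WtPE against WtCS, 0.0517 for CanB in sei, 0.118 for CanB in WtPE against WtCS, 0.0533 for CanB and 0.158 for sra in the sei effect less the KCNQ effect. Run C alone gave 0.599 for CanA-14F 1625316_s_at and 0.273 for sra in sei. A second quantile normalization gave 0.0313 for CanB in KCNQ and -0.0343 for CanB2 in sei, and the same 75th percentile 0.00584 for CanB in KCNQ. Leaving out arrays gave ranges of -0.344 to 0.115 (CanA-14F 1623931_s_at, KCNQ), -0.198 to 0.185, -0.182 to 1.02 and -1.05 to 0.156 (CanA-14F 1625316_s_at, in sei, KCNQ and the sei effect less the KCNQ effect), -0.0859 to 0.145 (Pp2B-14D, KCNQ), -0.111 to 0.0959 (Pp2B-14D, WtPE against WtCS), -0.336 to 0.431 (CanB, KCNQ), -0.0159 to 0.225 (sra, WtPE against WtCS) and -0.166 to 0.079 (sra, sei effect less KCNQ effect).

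Same-numbered arrays of WtCS and sei correlated at 0.0343 to 0.527 in their deviations from the group means and those of WtPE and KCNQ at -0.0392 to 0.0817. The 0.527 was at replicate 3, in run C in both genotypes. WtCS replicates 4 and 5 were closest to sei replicates 5 and 4, all in run A. The main fit used the numbers as names only. With the replicate block sei had 2699 calls over all probesets, and CanB2 in WtPE against WtCS was 0.556 (adjusted p = 0.0648). Over all probesets, the 2089 calls in sei became 1254 with the 2 groups alone, 855 in run A, 983 in run C, 1321 without sei replicate 1 and 1390 without sei replicate 2. The 689 in WtPE against WtCS became 340 with the 2 groups alone, 374 without WtPE replicate 1 and 322 without WtPE replicate 2. The 32 in KCNQ became 66 with run as a covariate, 21 without WtPE replicate 1 and 52 without WtPE replicate 3, and the 260 for the difference became 459 with it, 495 with codes averaged and 425 without sei replicate 5. Of the 7 calcineurin probesets 3 had a mean log2 under 5, where signal over background limits what can be seen.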
